A study of Mus musculus with 23 samples.

Results

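Translation initiation and elongation factors are the proteins that load ribosomes onto mRNA, find the start codon and move the ribosome along. Their RNAs were followed here in mouse hippocampal neurons whose axons were, or were not, pulled by magnetic nanoparticles. The members are the protein-coding genes whose symbol begins with Eif (54 genes) or Eef (14 genes), 68 of the 55487 gene IDs counted in each library. Of 80 symbols with these beginnings, 10 pseudogenes, 1 other noncoding gene and the Y-linked Eif2s3y were left out.

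Hippocampi of C57Bl/6 pups on postnatal day 1 were dissociated and the neurons grown in microfluidic chambers, which let axons, but not cell bodies, pass into a second compartment. All cultures, controls included, were given MNPs (magnetic nanoparticles, 5 µg/ml). Stretched cultures, called treated in the labels, lay in a magnetic field gradient of 50 T/m from day in vitro 1 to 6, and control cultures in a null gradient. The axonal side gave 5 control and 6 stretched libraries, labelled as a pure axonal preparation, and the cell-body side gave 6 control and 6 stretched libraries, called soma here but labelled as total culture. Nothing in the labels says whether replicates came from separate cultures or animals, so p-values measure only the spread between these libraries, which may be technical.

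Initiation starts when eIF2 brings the initiator tRNA to the small ribosomal subunit and eIF4F, built from the cap-binding eIF4E, the scaffold eIF4G and the helicase eIF4A, recruits that subunit to the mRNA cap, with eIF3 bridging them. eEF1A then delivers each aminoacyl-tRNA, eEF1B reloads eEF1A with GTP, and eEF2 moves the ribosome by a codon. Neurons make part of their proteins in axons, far from the nucleus, and control this supply through eIF2 kinases, eIF4E-binding repressors and the eEF2 kinase.

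Libraries held 16369153 to 43048953 counts in genes, and between 1.29% and 1.58% of these lay in the 68 members. A floor of 3 counts stood for 0.0697 to 0.183 counts per 1000000 counts (CPM), and floors and intervals cover counting error only. Axon libraries detected 4263 to 10242 genes and soma libraries 22452 to 24575. Control soma replicate 4 stood apart from its group: its score on component 1 of a principal component analysis (30.95% of the soma variance) was 31.2, within the 8.61 to 40.8 of stretched soma, and the other controls scored -52.3 to -26.1. By their Eif2s3y level, the soma libraries also fell into a set with 24.7 to 28.7 CPM and one with 5.39 to 13.2 CPM, called sets A and B here, each with 3 control and 3 stretched libraries. All 8 neuron markers were counted in every soma library, and 5 and 4 of them in every control and stretched axon library. Astrocyte markers were also present, with a summed level of 4650 to 25600 CPM in control axons, 4790 to 19600 in stretched axons, 5120 to 14100 in control soma and 5350 to 11400 in stretched soma (medians 18300, 8160, 8520 and 8510). Neuron markers summed to medians of 3640 and 3460 CPM in control and stretched axons and 8330 and 7450 in control and stretched soma. Markers of dendrites or nuclei had medians of 2050 and 1520 CPM in axons and 2720 and 2320 in soma, and endothelial and mural markers 476 and 506 in axons and 157 and 222 in soma. All 8 astrocyte markers had counts in each group, 4 and 2 of them in every control and stretched axon library. Microglial markers summed to a median of 0.111 and 0.0642 CPM in control and stretched axons, with 5 and 1 of 8 at 0, and to 46.7 and 31.5 CPM in control and stretched soma. Their highest axon libraries reached 494 and 401 CPM, above the highest soma libraries at 76.3 and 36.4. Fibroblast and meninges markers had medians of 162 and 434 CPM in control and stretched axons (highest 386 and 1110). In control and stretched soma they had 165 and 175 (highest 227 and 237). The part of other cells in the results below was not tested.

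Counted per kilobase of transcript, Eif5a, Eif4a1, Eef1a1 and Eif1 had the highest medians in each of the 4 groups. In control soma Eif5a, which helps ribosomes past difficult peptide bonds, had a median of 765 CPM per kilobase (lowest 659, highest 789). Eif4a1, the main helicase of eIF4F, followed at 658 (556 to 716), Eef1a1 at 596 (484 to 666), and Eif1, which guards start-codon choice, at 476 (392 to 523). Each of these neighbours overlapped the next in its range. The other eEF1A gene, Eef1a2, which replaces Eef1a1 in mature neurons, stood at 1.39 (0.634 to 1.81), far below Eef1a1. This order depends on the transcript taken for Eif4g2, for which the annotation holds equally ranked transcripts of 7995 bases, used here, and 3548 bases. With the shorter, Eif4g2 would have 502 CPM per kilobase in control soma (382 to 862), above the median of Eif1, and 780.2 in stretched soma (733 to 911), above Eif5a at 697 (641 to 731). In stretched axons Eef1a1 came first, with a median of 1023 CPM per kilobase (894 to 1303), ahead of Eif5a at 761 (322 to 980), whose range overlapped it. In control axons Eif5a had 1029 (623 to 1143) and Eef1a1 had 962 (603 to 1553). Levels of Eef1a1 and other genes with processed pseudogenes may be undercounted, because reads that aligned to more than 1 place were kept out of the counts.

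**Figure D1:**
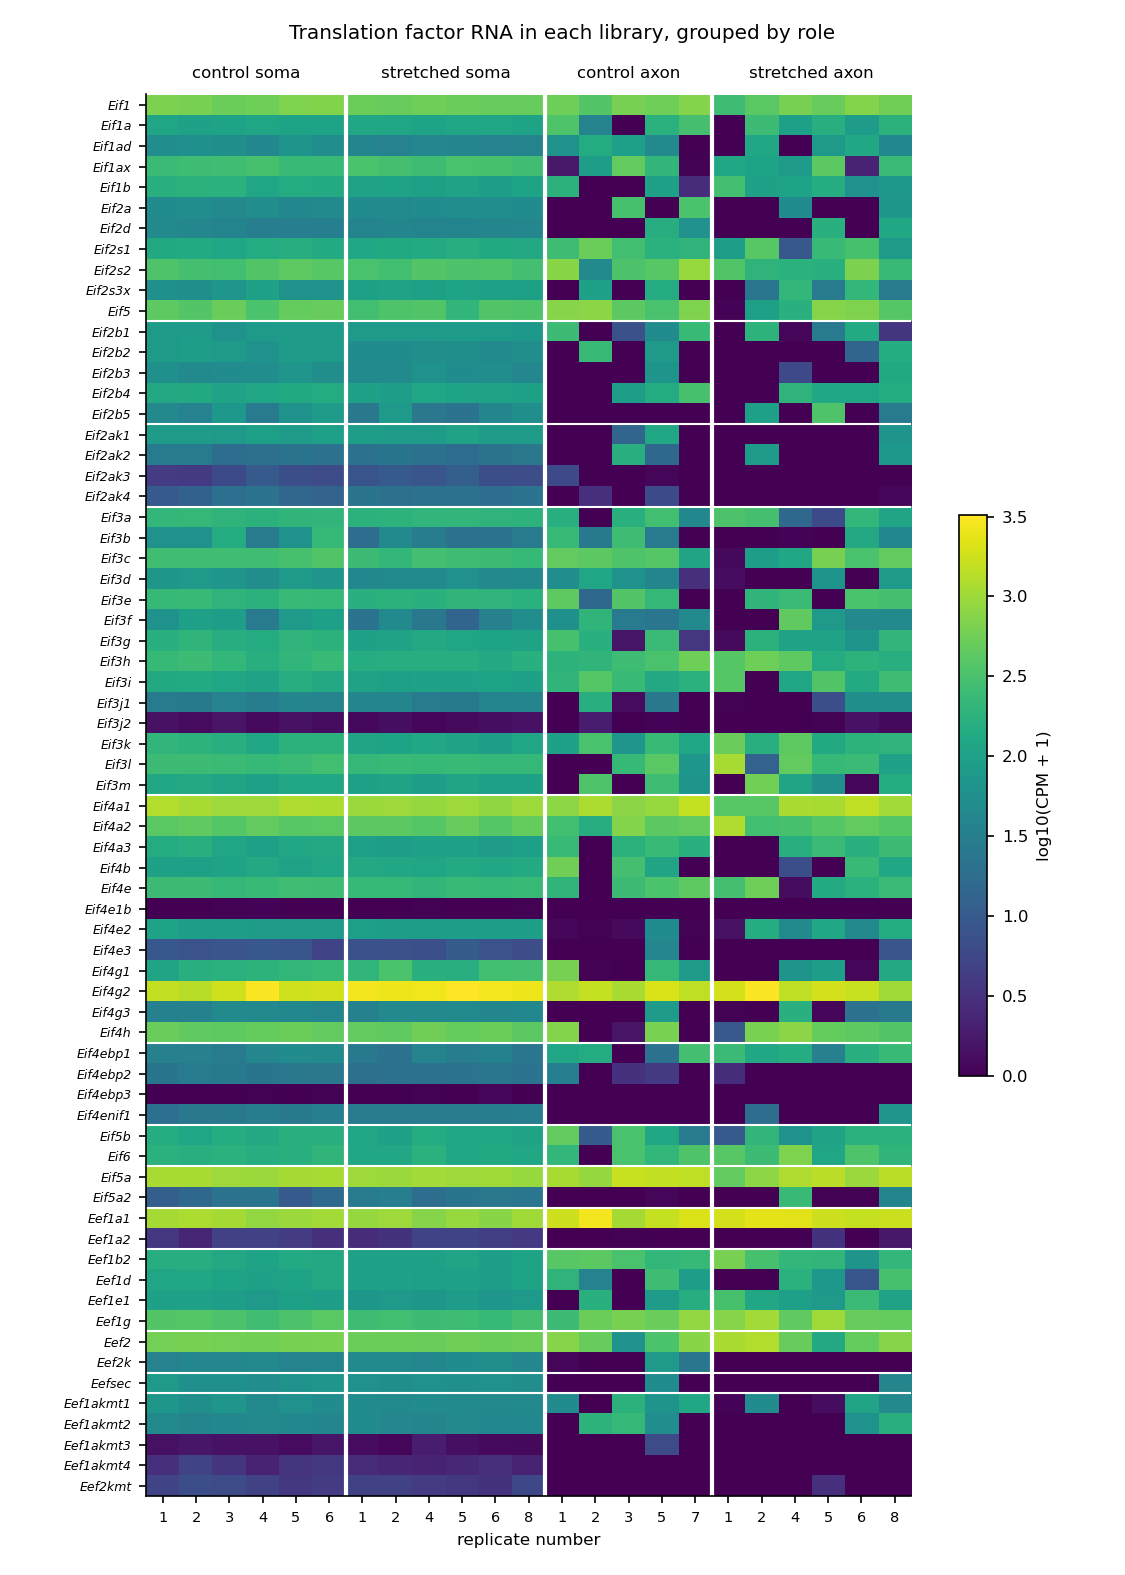
Level of the 68 members (rows, grouped by role) in each of the 23 libraries (columns, numbered by replicate), as log10(CPM + 1). Soma columns look alike, with 66 to 68 members detected in each, while axon columns are patchy, with 33 to 60 detected.

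Stretch in soma was tested with edgeR's quasi-likelihood test on the 12 soma libraries, with Benjamini-Hochberg adjustment over all genes tested, and a gene is called where its adjusted p is under 0.05. Most translation factors that moved went down. Of the 65 members tested, 29 were lower (44.6%), 3 were higher and 33 did not pass. Over all 15632 genes tested 25.1% were called, 13.9% lower and 11.2% higher. An unadjusted p under 0.05 was found for 38 members and for 39.4% of all genes. The median log2 fold change was -0.23 over the members and -0.03 over all genes. The remaining 3 members, Eif3j2, Eif4e1b and Eif4ebp3, were too low to test. In these bulk libraries fewer cells of a type and less RNA per cell cannot be told apart.

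The eIF3 complex, which holds the initiation machinery on the small subunit, had 10 of its 13 tested genes lower and none higher. Eif3k (ENSMUSG00000053565, chr7:28971372-28981864 in GRCm38, minus strand), a peripheral subunit, had 127 to 207 TMM-normalized CPM in control soma (median 180) and 90.6 to 122 in stretched soma (median 107). Every stretched library lay below every control, and the log2 fold change was -0.71 (SE 0.11, edgeR adjusted p = 0.002931). Eif3g (chr9:20894349-20898623, minus strand), an RNA-binding subunit, had 143 to 204 (median 178) and 101 to 129 (median 105) normalized CPM. Its groups also did not overlap, and the log2 fold change was -0.68 (SE 0.10, edgeR adjusted p = 0.002931). The numerically larger falls of Eif3b and Eif3f, chosen here after their values were seen, rested on wide spreads. Eif3b ranged from 26.4 to 227 normalized CPM in control soma (median 64.1) and from 16.9 to 43.7 in stretched soma (median 23.01), a difference of -1.90 ± 0.44 on the log2 scale (SE; edgeR adjusted p = 0.01136). Eif3f ranged from 26.0 to 104 (median 82.6) and from 12.9 to 49.9 (median 28.5), a difference of -1.29 ± 0.35 on the log2 scale (SE; edgeR adjusted p = 0.02023). In both genes control replicate 4 was the lowest control, and the groups overlapped. The 3 eIF3 genes that did not pass were Eif3a, Eif3c and Eif3j1, at -0.11, -0.26 and 0.04 on the log2 scale. Eif3a, the largest scaffold subunit, had 182 to 223 normalized CPM in control and 177 to 202 in stretched soma (edgeR adjusted p = 0.2989).

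**Figure D2:**
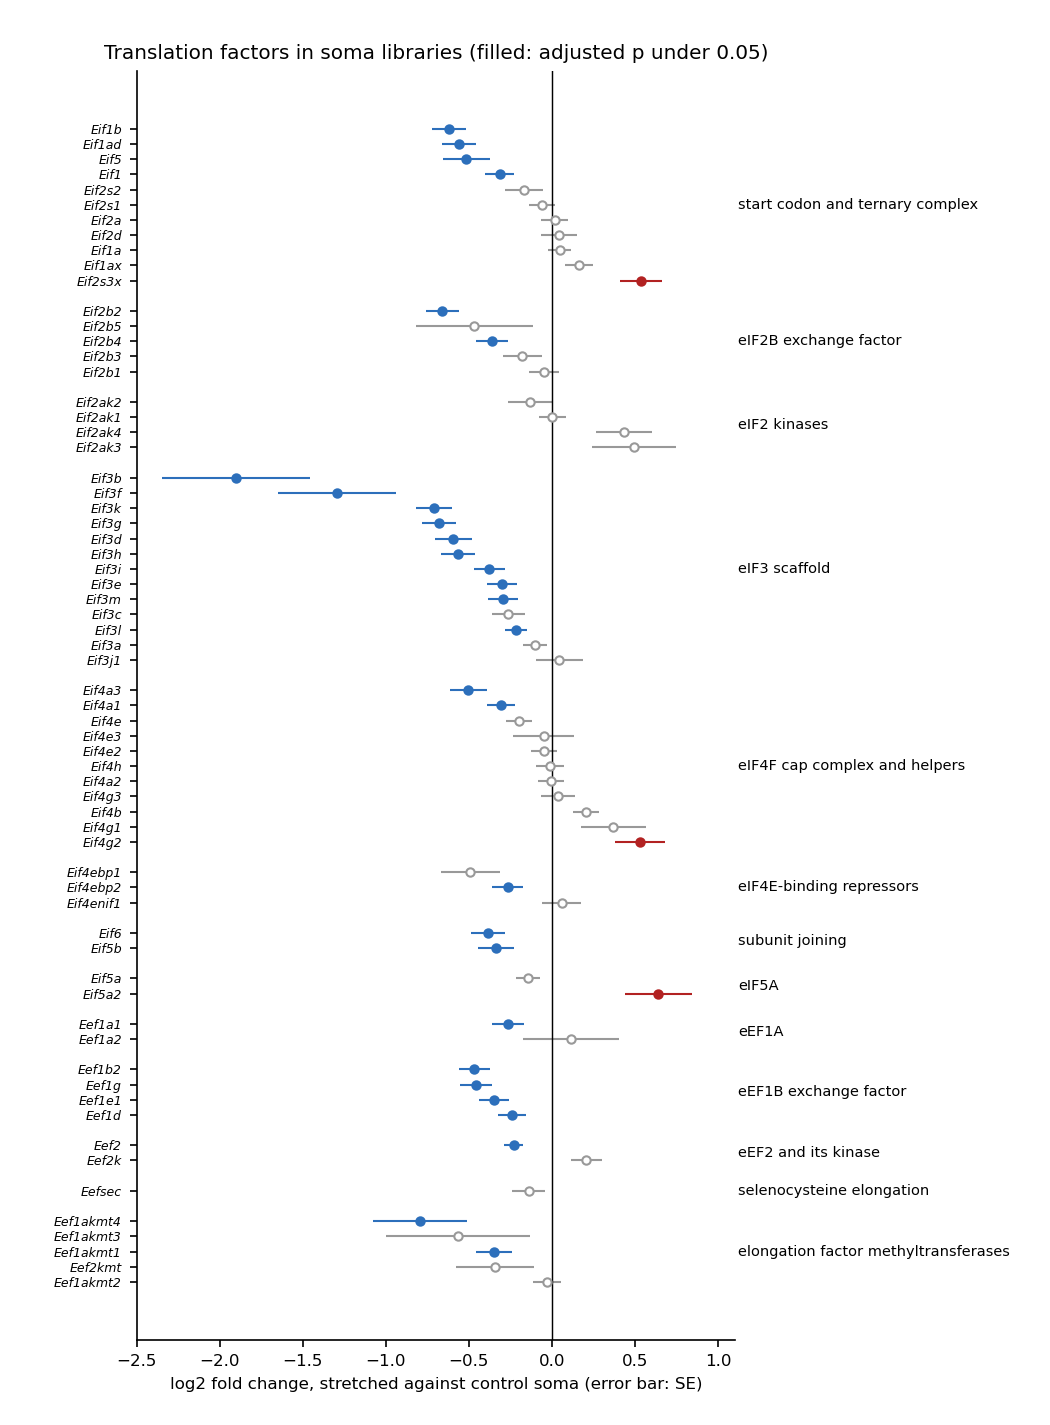
Log2 fold change of the 65 tested members in stretched against control soma (x axis), with 1 row per gene, grouped by role, and bars of 1 SE. Filled points passed at an adjusted p under 0.05: 29 lie below 0 and 3 above, and the eIF3 and eEF1B groups lie mostly below.

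The factors that pick the start codon were split. Eif1b and Eif1ad, relatives of the start-codon factors eIF1 and eIF1A, both fell without overlap. Eif1b had 115 to 184 normalized CPM in control (median 158) and 91.4 to 105 in stretched soma (median 102), a difference of -0.62 ± 0.10 on the log2 scale (SE; edgeR adjusted p = 0.003348). Eif1ad had 42.8 to 66.6 (median 53.1) and 34.1 to 40.8 (median 36.2), a difference of -0.56 ± 0.10 on the log2 scale (SE; edgeR adjusted p = 0.004444). Eif1 fell less, by 0.32 on the log2 scale (SE 0.09, edgeR adjusted p = 0.0181), from a median of 648 to 497 normalized CPM, and Eif5, which stimulates GTP hydrolysis by eIF2, fell by 0.52. Of the 3 subunits of eIF2, 1 passed. Eif2s1, the alpha subunit that stress kinases phosphorylate, had 118 to 155 normalized CPM in control (median 143) and 124 to 149 in stretched soma (median 133), at -0.06 on the log2 scale (SE 0.08, edgeR adjusted p = 0.5903). Eif2s2, the beta subunit, was at -0.17 (SE 0.11, edgeR adjusted p = 0.2922). Eif2s3x (chrX:94188707-94212862, minus strand), the gamma subunit that binds GTP and the tRNA, was higher. It had 56.3 to 102 normalized CPM in control soma (median 63.1) and 94.4 to 105 in stretched soma (median 98.2), a difference of 0.54 ± 0.12 on the log2 scale (SE; edgeR adjusted p = 0.00984). The control at 102 was replicate 4. The other 5 controls lay below every stretched library.

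Of the 5 subunits of eIF2B, which reloads eIF2 with GTP, 2 fell and the rest did not pass. Eif2b2 (chr12:85219481-85226628, plus strand), the beta subunit, had 61.6 to 90.7 normalized CPM in control (median 82.6) and 44.8 to 54.5 in stretched soma (median 50.2). Its groups did not overlap, and the log2 fold change was -0.66 (SE 0.10, edgeR adjusted p = 0.002931). Eif2b4 fell by 0.36. None of the 4 eIF2 kinases passed: Eif2ak1 and Eif2ak2 were at 0.00 and -0.13 on the log2 scale, and Eif2ak3 and Eif2ak4 at 0.49 and 0.43 (edgeR adjusted p = 0.1628 and 0.0698).

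In the cap-binding group, of 11 genes tested, the helicase genes Eif4a1 and Eif4a3 fell and the scaffold Eif4g2 rose, while the other 8 did not pass. Eif4a1 (chr11:69666936-69672423, minus strand) had 980 to 1306 normalized CPM in control (median 1197) and 856 to 976 in stretched soma (median 953). The groups did not overlap, and the log2 fold change was -0.31 (SE 0.08, edgeR adjusted p = 0.01617). Eif4a3, a helicase of the exon junction complex, fell by 0.50, while Eif4a2, the helicase abundant in brain, was at -0.01 (SE 0.08, edgeR adjusted p = 0.963) with 373 to 466 normalized CPM in control and 382 to 481 in stretched soma. Eif4e had 211 to 278 (median 262) and 205 to 237 (median 221), at -0.20 (SE 0.08, edgeR adjusted p = 0.06514). The large scaffold Eif4g1 ranged from 113 to 230 and from 156 to 318, at 0.37 (SE 0.20, edgeR adjusted p = 0.1779). Eif4g2 (ENSMUSG00000005610, chr7:111067750-111083030, minus strand) encodes DAP5, a scaffold without the eIF4E-binding site that works in cap-independent initiation. It was higher: 1400 to 3072 normalized CPM in control soma (median 1791) and 2499 to 3185 in stretched soma (median 2764), a difference of 0.53 ± 0.15 on the log2 scale (SE; edgeR adjusted p = 0.02192). Control replicate 4 was again the one at 3072, and the next control had 1900. Of the repressors that hold eIF4E, Eif4ebp2, the main form in brain, fell from a median of 24.5 to 19.9 normalized CPM, with overlapping ranges (log2 fold change -0.27, SE 0.09, edgeR adjusted p = 0.04781). Eif4ebp1 was at -0.49 (edgeR adjusted p = 0.05245). Eif5b, a subunit-joining factor, and Eif6, grouped with it here, fell by 0.34 and 0.38.

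**Figure D3:**
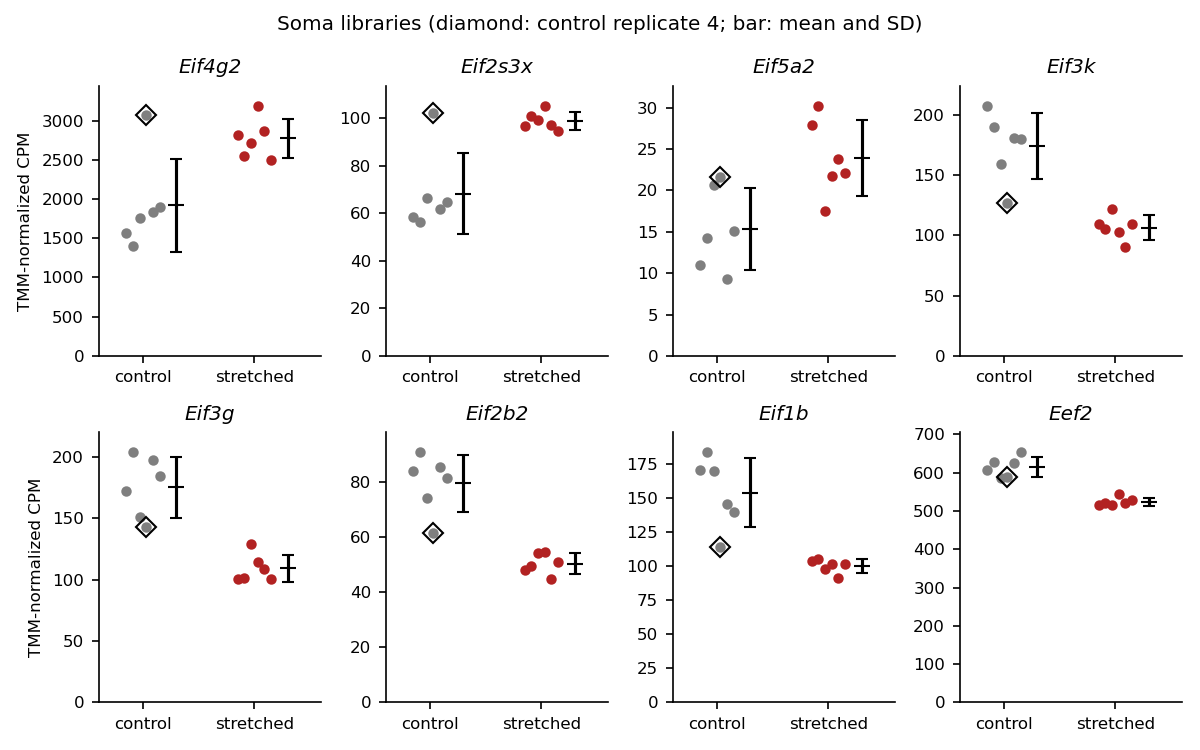
TMM-normalized CPM (y axis, from 0) of 8 members in each soma library, with the mean and SD beside each group of 6. For Eif4g2 and Eif2s3x, control replicate 4 (diamond) sits at the level of the stretched libraries, while for Eif3k, Eif3g, Eif2b2 and Eif1b it is the control nearest to them.

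Of the 14 Eef genes, 8 were lower and none higher, while of the eIF5A genes, described below, Eif5a2 was higher. The 8 include the methyltransferase genes Eef1akmt1 and Eef1akmt4. All 4 genes grouped here under eEF1B (Eef1b2, Eef1d, Eef1e1 and Eef1g) were lower, a grouping that need not match the complex itself. Eef1b2, an exchange subunit, had 107 to 159 normalized CPM in control (median 138) and 91.0 to 108 in stretched soma (median 99.8), a difference of -0.47 ± 0.09 on the log2 scale (SE; edgeR adjusted p = 0.005861) with ranges that met at their ends. Eef1g, Eef1e1 and Eef1d were at -0.46, -0.35 and -0.24. Eef1a1 had 872 to 1233 (median 1072) and 756 to 992 (median 907.5), a log2 fold change of -0.27 (SE 0.09) that passed narrowly (edgeR adjusted p = 0.0494). Eef1a2 stayed near 3 normalized CPM in both groups (edgeR adjusted p = 0.7982). Eef2 (chr10:81176631-81182498, plus strand) had 585 to 653 normalized CPM in control (median 617) and 515 to 544 in stretched soma (median 521). Its change was small, -0.23 on the log2 scale (SE 0.06, edgeR adjusted p = 0.01246), but the groups did not overlap. Its kinase Eef2k, which inactivates eEF2 by phosphorylation, was at 0.21 and did not pass (edgeR adjusted p = 0.12). Among the eIF5A genes, Eif5a was at -0.15 (885 to 1056 against 951 to 1166 normalized CPM, edgeR adjusted p = 0.1476), while Eif5a2 (chr3:28781276-28798846, plus strand), its scarcer paralog, was higher. Eif5a2 had 9.31 to 21.6 normalized CPM in control (median 14.7) and 17.5 to 30.2 in stretched soma (median 22.9), a difference of 0.64 ± 0.20 on the log2 scale (SE; edgeR adjusted p = 0.02975). Replicates 3 and 4 were the highest controls, and the groups overlapped. In all, 7 members (10.8%) had groups that did not overlap, namely Eif3k, Eif3g, Eif2b2, Eif1b, Eif1ad, Eif4a1 and Eef2, against 4.04% of all genes tested, and all 7 were lower.

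More members were called without the library that stands apart. That library was singled out because it resembled stretched soma. A larger difference without it follows from this choice, so the fits that leave it out are no separate support. Leaving out control soma replicate 4, all 29 lower and 3 higher calls remained and the counts rose to 32 and 7. Over all 15857 genes tested there, 3183 were lower and 2889 higher. The log2 fold changes were then 0.70 for Eif4g2, 0.67 for Eif2s3x and 0.75 for Eif5a2. Within set A 22 of 66 members were lower and 6 higher, against 2014 and 2623 of 15867 genes. Within set B, which holds control replicate 4, no gene was called by edgeR, member or not. An unadjusted p under 0.05 was found there for 20 of 65 members and 2739 of 15718 genes. Without control replicate 4 the set gave 29 lower and 5 higher members, against 2313 and 2149 of 16237 genes. All 32 called members kept their sign in each of these fits. With all 4 groups in 1 fit, where the biological coefficient of variation was 1.70 in place of 0.24, none was called.

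Transcript length moved with this response. Across all 15619 genes with a length, the soma log2 fold change rose with transcript length (Spearman 0.477, across genes, which are not independent replicates and share the same libraries), and across the 65 members it was 0.565. All 12 members with transcripts under 1500 bases lay below 0, with a median of -0.38 (all genes -0.35). Of 31 members between 1500 and 3000 bases, 27 lay below 0, with a median of -0.30 (all genes -0.14), and of 22 over 3000 bases, 9 did, with a median of 0.04 (all genes 0.18). With an offset for length and GC content in each library, 21 members were lower and 1 was higher, against 1319 and 817 of all 15619 genes. Of the original calls, 17 lower ones and Eif2s3x (log2 fold change 0.38, edgeR adjusted p = 0.02447) remained. Eif4g2 was then at 0.26 (edgeR adjusted p = 0.06143) and Eif5a2 at 0.27 (edgeR adjusted p = 0.3659). The offset for Eif4g2 used the longer of its tied transcripts. In the eIF3 group 9 genes were lower with the offset, and Eif3a passed there at -0.40 (edgeR adjusted p = 0.01888). The part of transcript length in the response was not otherwise tested.

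**Figure D4:**
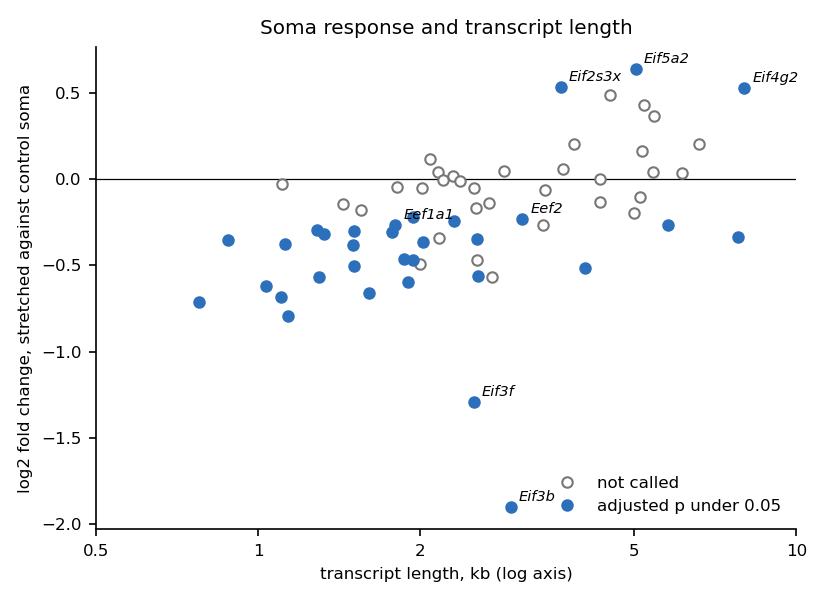
Log2 fold change in stretched against control soma (y axis) against transcript length (x axis, log scale) for the 65 tested members. Short transcripts lie below 0 and the 3 higher genes, Eif4g2, Eif2s3x and Eif5a2, have transcripts over 3000 bases.

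Many elongation factor mRNAs are known as 5′ TOP mRNAs: they begin with a C followed by a run of pyrimidines, the element through which the kinase mTOR controls their translation. A list of known TOP mRNAs, written with earlier results of these data known, held 9 members. Of these, 8 were lower in stretched soma (Eef1a1, Eef1b2, Eef1d, Eef1g, Eef2, Eif3e, Eif3f and Eif3h), against 13.9% of all 15632 genes tested. The other, Eif4b, a cofactor of eIF4A, did not pass at 0.21 (edgeR adjusted p = 0.06891). Whether the TOP element had a part in this was not tested. The offset for length and GC content left 6 of the 9 lower, against 1319 of 15619 genes. The windows below run from 15 bases before to 15 after an annotated start (RefSeq, GRCm38.p6), 5′ to 3′ on the gene's strand, and are shown for 5 TOP mRNAs and for the 2 higher members found in that table. Capitals mark a C followed by at least 4 bases that are C or T.
Eef1a1, chr9:78481710-78481739, minus strand: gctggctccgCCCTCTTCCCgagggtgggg
Eef1b2, chr1:63176816-63176845, plus strand: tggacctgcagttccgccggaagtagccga
Eef2, chr10:81176616-81176645, plus strand: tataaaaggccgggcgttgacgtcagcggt
Eif3f, chr7:108934400-108934429, plus strand: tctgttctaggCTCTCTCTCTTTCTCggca
Eif4b, chr15:102073758-102073787, plus strand: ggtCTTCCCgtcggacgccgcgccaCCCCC
Eif2s3x, chrX:94212637-94212666, minus strand: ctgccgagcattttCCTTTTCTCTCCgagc
Eif5a2, chr3:28781262-28781291, plus strand: ggcgggcccgggctgggcgggccggggcgg
Eef1a1 and Eif3f, which fell, carry a tract in the window, as do Eif4b, which did not pass, and Eif2s3x, which rose, while Eef2 and Eef1b2, which also fell, show none there. Only the gene's own strand was searched, and a tract counted anywhere in the window. The stretches marked for Eif4b do not reach its annotated start. Such a tract was found for 19 of the 52 members in the table (36.5%), 3 of 5 listed TOP mRNAs, 7 of the 22 lower members (31.8%), and 40.3% of all 27025 genes. Annotated starts are not measured ones, and an absent tract says only that these letters are not in this window.

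Other genes of the translation machinery, from a list of 41 of which 40 were matched, went the other way more often than down: 10 were higher in stretched soma, 3 lower and 27 did not pass. Over all genes tested 11.2% were higher and 13.9% lower. The poly(A)-binding and cap-repression group had 5 of 9 higher and none lower, with Paip1, which bridges poly(A)-binding protein and eIF4A, at 0.65 (SE 0.15, edgeR adjusted p = 0.009408) and Pabpc1, the main cytoplasmic poly(A)-binding protein, at 0.30. Mtor and Tsc2, a kinase that promotes translation and a brake on it, were at 0.56 and 0.49, the ribosome recycling factor Abce1 at 0.56 and the eIF2 phosphatase subunit Ppp1r15b at 0.51. The 3 lower genes, Tufm, Tsfm and Mtrf1l, belong to mitochondrial translation, at -0.36, -0.44 and -1.08, where Gfm1 was higher at 0.30. With the length and GC offset 6 of the 40 were called in place of 13, against 2136 of all 15619 genes in place of 3929 of 15632. Without control replicate 4, 21 of the 40 were called, against 6072 of 15857 genes.

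Axon libraries held a subset of the family. Of the 68 members, 19 had counts in all 11 axon libraries, 20 in 8 to 10, 14 in 4 to 7, 12 in 1 to 3 and 3 in none, while 66 had counts in all 12 soma libraries. The 19 were Eef1a1, Eef1b2, Eef1g, Eef2, Eif1, Eif1ax, Eif2s1, Eif2s2, Eif3c, Eif3g, Eif3h, Eif3k, Eif4a1, Eif4a2, Eif4e2, Eif4g2, Eif5, Eif5a and Eif5b, which include start-codon, eIF2, eIF3, eIF4F, subunit-joining and elongation factors but no subunit of eIF2B and neither Eif4e nor Eif4g1. Any count was taken as detection, however low. Eif4e had counts in 10 of the 11 axon libraries, with a median of 246 CPM over them, and Eif4g1 in 8, with 64.5. Eif4e2 is among the 19, with a median of 43.5 CPM, though its median in control axons was 0.187 TMM-normalized CPM. Those found in at most 3 axon libraries included all eIF2 kinases but Eif2ak2, the eEF2 kinase, and the repressor Eif4enif1. Detection followed the soma level. At 10 to 50 CPM in soma, the 18 members had counts in 48.5% of axon libraries on average and all 5021 genes in 34.4%. Of genes with 100 to 300 CPM in soma, the 23 members had counts in 86.6% of axon libraries on average and all 1822 genes in 71.4%, and from 300 CPM up the 10 members reached 98.2% and all 534 genes 91.5%.

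Axon was compared with soma within each condition. In control cultures 7 of 65 tested members were called (10.8%), 1 higher and 6 lower, against 35.3% of all 14728 genes (0.856% higher, 34.4% lower). The median log2 fold change was -0.28 over the members and -1.40 over all genes. In stretched cultures 9 of 64 were called (14.1%), 3 higher and 6 lower, against 29.3% of 14466 genes (0.843% higher, 28.4% lower), with medians of -0.44 and -1.13. Groups did not overlap for 11 members in control (16.9%, all genes 42.3%) and 13 in stretched cultures (20.3%, all genes 38.0%). An unadjusted p under 0.05 was found for 9 members in control cultures (37.5% of all genes) and 10 in stretched ones (32.0% of all genes). Scaling by library totals alone moved the median of all genes to -1.27 and -0.73, and each difference here is relative to the TMM scale. With scarce genes left out (mean of at least 10 CPM), the members lay closer to the other genes. The control medians were then -0.35 over 57 members and -0.54 over all 9067 genes. The stretched medians were -0.44 over 58 members and -0.52 over all 9308 genes. Called at that level were 0 higher and 2 lower members against 843 genes (control), and 1 higher and 2 lower against 634 genes (stretched). In data simulated with 1 fitted spread per gene for both compartments, 0% of 2-fold and at most 1% of 4-fold changes between axon and soma were recovered. That share is over genes of all levels and need not hold for the abundant members. Nor need it hold for the real libraries, whose biological coefficient of variation was 0.24 in soma and 2.39 in axons.

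Eef1a1 (ENSMUSG00000037742, chr9:78478449-78489151, minus strand) was the member called higher in axons in both conditions. Control axons had 1726, 2786, 1082, 1565 and 2093 CPM (replicates 1, 2, 3, 5 and 7), and control soma 868 to 1194 (median 1068). Of the 5 axon libraries, 4 lay above all control soma libraries. The log2 fold change was 0.54 (SE 0.19, edgeR adjusted p = 0.04315), and it lost its call in 8 of the leave-one-out fits, with values from 0.41 to 0.67. It was also lost with limma voom (adjusted p = 0.2059), without a filter (edgeR adjusted p = 0.4955), from 10 CPM up (edgeR adjusted p = 0.3354) and with all 4 groups in 1 fit (edgeR adjusted p = 0.218). The same held with the replicate number as a block (edgeR adjusted p = 0.3331). Stretched axons had 1603 to 2338 CPM (median 1836) and stretched soma 752 to 1032 (median 918), without overlap. The log2 fold change there was 0.61 (SE 0.13, edgeR adjusted p = 0.002943), and the call held without any 1 library. It was not called with limma voom (edgeR's value 0.61, voom's 0.59, adjusted p = 0.1918) or without a filter (0.60, edgeR adjusted p = 0.259). With the replicate number as a block it was also not called (0.61, edgeR adjusted p = 0.209).

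Of the genes grouped here under eEF1B, Eef1g (chr19:8967041-8978479, plus strand) was also higher in stretched axons. It had 445 to 1065 CPM (median 619) in stretched axons and 226 to 296 in stretched soma, without overlap, and the log2 fold change was 0.92 (SE 0.26, edgeR adjusted p = 0.01691). The call was lost with limma voom (adjusted p = 0.06169), from 10 CPM up (edgeR adjusted p = 0.1329) and without a filter (edgeR adjusted p = 0.1533). It was also lost with the replicate number as a block (edgeR adjusted p = 0.4453). In control axons it had 254, 521, 607, 516 and 875 CPM, which overlapped the 274 to 412 of control soma, and it did not pass. Eef1b2 stood at 393, 425, 317, 208 and 222 CPM in control axons, all above the 107 to 154 of control soma, with a log2 fold change of 0.92 (SE 0.34) that missed the threshold (edgeR adjusted p = 0.05615). The repressor Eif4ebp1 (chr8:27260329-27276674, plus strand), named because it is the third higher member, had 32.5 to 245 CPM in stretched axons (median 157) and 20.3 to 36.2 in stretched soma. Of the 6 axon libraries 5 lay above all soma libraries, and the log2 fold change was 2.00 (SE 0.54, edgeR adjusted p = 0.01174). The call was lost from 10 CPM up (edgeR adjusted p = 0.1649), with all 4 groups in 1 fit (edgeR adjusted p = 0.1604) and with the replicate number as a block (edgeR adjusted p = 0.4393). Control axons held 117, 141, 0, 20.1 and 284 CPM of it.

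Of the 6 lower calls in stretched axons, 5 were of genes with counts in at most 1 of the 6 libraries, and the other was Eif4g2. These 5 passed the filter only through soma libraries, and with so few axonal counts a call could only be lower. The fold bounds and intervals given here and for control axons cover counting error only, not the spread between axon libraries. Eef2k had 0 counts in all 6 stretched axon libraries and 46.3 ± 4.75 CPM in stretched soma (SD, n = 6), at least 332-fold lower against the mean floor of 0.139 CPM per library. In control axons it was uneven, with 0.111, 0, 0, 78.3 and 22.96 CPM, and did not pass against control soma (edgeR adjusted p = 0.8459). Eif2ak3, the kinase PERK of the endoplasmic reticulum stress response, also had 0 counts in stretched axons and 7.60 ± 1.89 CPM in stretched soma (SD, n = 6), at least 54.6-fold lower. Eif2ak4, the amino acid sensor GCN2, had 3 counts, all in stretched axon replicate 8, and 19.5 ± 1.52 CPM in stretched soma, a ratio of 870.0 (95% exact Poisson interval 298 to 4220). Eif4ebp2 had 1.87 CPM in stretched axon replicate 1, 0 in the other 5, and 18.6 to 22.7 CPM in stretched soma (log2 fold change -6.78, SE 2.04, edgeR adjusted p = 0.0235, and 0.1187 from 10 CPM up). Control axons had 31.3, 0, 2.12, 2.97 and 0 CPM. The methyltransferase Eef1akmt4 had no axonal count and was at least 19.8-fold lower in control and 10.7-fold lower in stretched axons.

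In control axons 3 further members called lower had 0 counts. Eif2b5, the catalytic subunit of eIF2B, had 53.8 ± 22.1 CPM in control soma (SD, n = 6) and was at least 423-fold lower. In stretched axons, though, Eif2b5 had counts in 3 libraries, at up to 308 TMM-normalized CPM. The eIF4E transporter gene Eif4enif1 had 25.6 ± 4.38 CPM and was at least 202-fold lower, and the eEF2 methyltransferase Eef2kmt had 4.18 ± 1.22 CPM and was at least 32.9-fold lower. Eef1a2 had 1 count in 1 library and 2.78 ± 0.993 CPM in soma, a ratio of 360.0 (95% exact Poisson interval 64.6 to 14200). Eif5a2 had 7 counts, all in control axon replicate 5, and 9.12 to 21.5 CPM in soma. All 6 lower calls in control axons are of genes with counts in at most 1 of the 5 libraries, while those in stretched axons include Eif4g2, which had counts in every axon library. The 6 in control axons also passed the filter only through soma libraries, so their calls could only be lower.

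**Figure D5:**
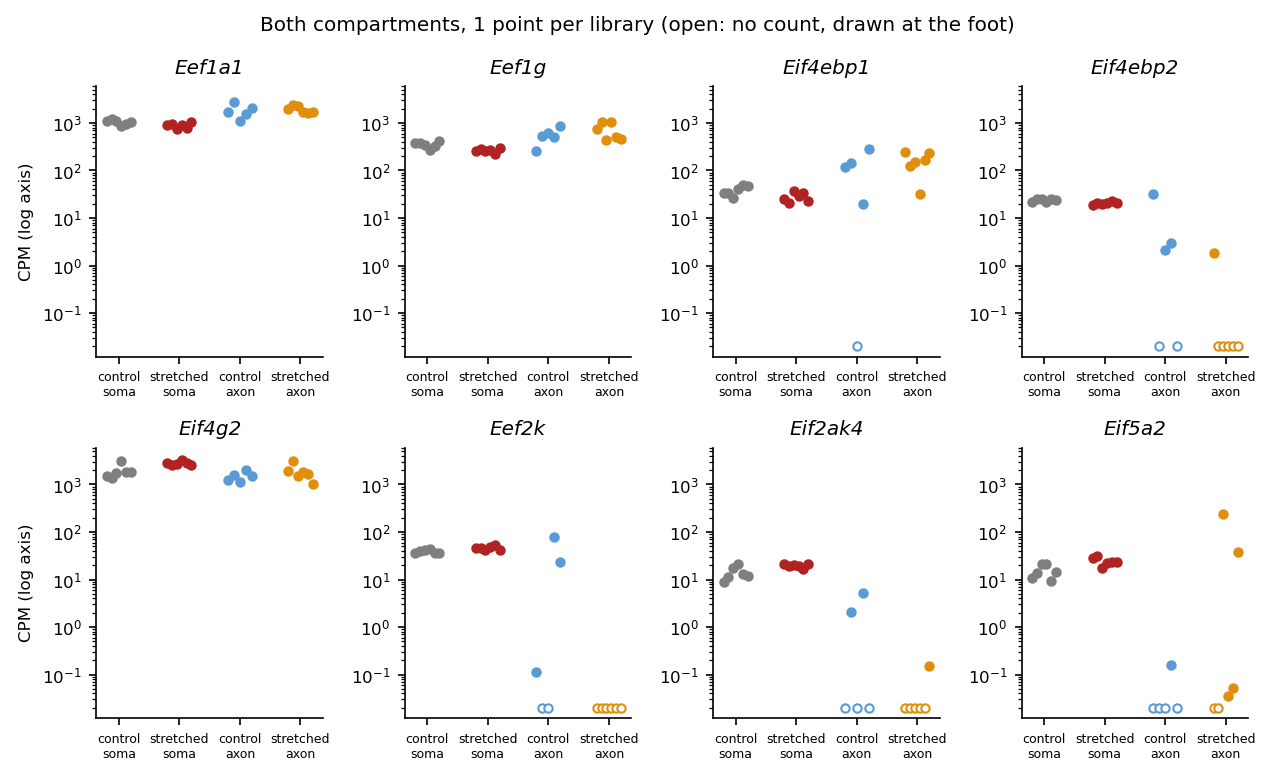
CPM (y axis, log scale) of 8 members in each library of the 4 groups, with libraries without a count drawn open at the foot of the axis. Eef1a1 and Eef1g lie above soma in every stretched axon library and overlap soma in control axons, Eif4ebp1 spreads widely in axons, while Eif4ebp2, Eef2k and Eif2ak4 have no count in at least 5 of 6 stretched axon libraries and Eif5a2 scatters.

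Eif4g2 was the abundant member that was lower in axons. Stretched axons had 1043 to 2405 TMM-normalized CPM and stretched soma 3079 to 3846, a difference of -1.14 ± 0.18 on the log2 scale (SE; edgeR adjusted p = 0.000253). In CPM without that scaling the ranges, 1030 to 3082 and 2600 to 3231, overlapped, and with library totals alone the value was -0.61 (edgeR adjusted p = 0.05109). In control cultures axons had 1233, 1603, 1146, 2039 and 1502 CPM and soma 1355 to 3058, at -0.57 on the log2 scale (SE 0.25, edgeR adjusted p = 0.1211). Without control axon replicate 5, its highest axon library, the value was -0.79 and passed (edgeR adjusted p = 0.01204). The remaining core members had levels in axons and soma that did not pass in either condition: Eef2 was at -0.65 and -0.11 (control and stretched), Eif1 at -0.38 and -0.43, Eif2s1 at 0.76 and -0.02, Eif3a at -0.78 and -0.81, Eif4a1 at -0.36 and -0.44, Eif4a2 at -0.25 and -0.31, Eif4e at -0.23 and -0.47, Eif4g1 at -0.24 and -2.66, and Eif5a at 0.10 and -0.36 on the log2 scale. No eIF3 gene was called in either condition. These comparisons with soma share soma libraries with the comparison of stretch in soma.

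Stretch in axons gave no call. Of 45 members tested with edgeR 0 passed and 0 had an unadjusted p under 0.05. Over all 4947 genes 0.0% passed and 46 (0.93%) had an unadjusted p under 0.05. No member had groups without overlap, against 0.283% of all genes. DESeq2 and limma voom also called 0 members, and 2 members had an unadjusted p under 0.05 with limma voom. Of the fits tried, the one over all 4 groups called members, 5 higher and 4 lower. The biological coefficient of variation was 2.39 among axons and 0.24 among soma libraries, and in simulated data with this spread 0% of 4-fold changes were recovered in axons. That share is over genes of all levels and need not hold for abundant members such as Eef1a1. The 3 members with the smallest unadjusted p were Eif4e2, Eif5a and Eif2s2, each with an edgeR adjusted p of 0.9998. Eif4e2, a cap-binding homolog linked to repression, had 0.167, 0.0499, 0.221, 50.6 and 0.0389 CPM in control axons. Stretched axons had 0.419 to 149 CPM (5 of the 6 above 40). Replicate 5 alone stood out among the controls, the groups overlapped, and the log2 fold change was 2.79 (SE 2.42). Eif5a had 1138, 895, 1643, 1553 and 1479 CPM in control and 462 to 1408 in stretched axons, at -0.35 (SE 0.37). Eif2s2, the eIF2 beta subunit, had 774, 46.1, 342, 392 and 931 in control and 166 to 663 in stretched axons, at -0.71 (SE 0.81). Eef1a1 was at 0.05 (SE 0.24) and Eif4g2 at 0.21 (SE 0.29).

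Whether stretch acted differently in the compartments was tested as the interaction over all 23 libraries. With edgeR 9 of 66 members passed (13.6%, against 21.8% of all 16113 genes), 5 with a higher stretch effect in axons (all genes 12.8%) and 4 with a lower one (all genes 8.93%). The same 13.6% had an unadjusted p under 0.05, against 25.3% of all genes. Each rests on an axon group at or near 0 counts. None of the 9 passed the filter for stretch in axons alone, so they entered this fit through soma libraries. The fit used 1 spread for all groups (biological coefficient of variation 1.70). Eif2b5, for example, had no count in 5 control axon libraries and 0, 96.2, 0, 350.1, 0 and 27.3 CPM in the stretched ones, and Eif5a2 had 234 CPM in stretched replicate 4, 38.7 in replicate 8 and at most 1 count in the other 4. With limma voom, by quality weights or by a variance weight per group, no member passed (8 and 6 had an unadjusted p under 0.05). For the core members with counts in all axon libraries the interaction did not pass, with Eef1a1 at 0.23, Eef2 at 0.72 and Eif4g2 at -0.40 on the log2 scale.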

How the data were processed

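Raw counts per Ensembl gene were deposited by the authors, 1 file per library, made with fastp 0.20.1, STAR 2.7.08a and HTSeq 0.13.5 on mm10, per the submitters' processing notes. The annotation release, the strand setting and any use of the molecular identifiers in counting are not given in the sources used here, so overlapping antisense genes cannot be told apart. Reads aligned to more than 1 place (5.43% to 13.4%) and ambiguous reads (4.37% to 5.94%) stayed out of the counts.

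Symbols came from a table that matched 55141 of the IDs, and transcript lengths from GENCODE M21 (1 transcript per gene: basic set, then APPRIS rank, support level and length). For each pair of groups only their libraries entered the fit, with edgeR 4.0.16 in R 4.3.3 (filterByExpr, TMM, robust quasi-likelihood F test, Benjamini-Hochberg over all genes tested, threshold 0.05), and the interaction over all 4 groups. SEs are the log2 fold change over the root of F. Alternatives used DESeq2 1.42.0, limma 3.58.1 and a smooth offset for length and GC content (mgcv 1.9.3). Sets A and B split at 20 CPM of Eif2s3y. The members and all lists were chosen with earlier results of these data known, and set B without control soma replicate 4 was added after seeing the data. Named by rule were 14 core factors, the called members without overlap (at most 6 each way), 3 each way for the interaction, and the 3 smallest p where none passed. Eif2s3x, Eif5a2, Eif4ebp1, Eif3b, Eif3f and other members named beyond these were chosen after their values were seen. On simulated counts for the soma comparison, 73% of 2-fold and 91% of 4-fold changes were recovered.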

Additional observations from a re-analysis of the deposited data

Results flagged for a closer look

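Within a group, 5 of 66 values tested (members by group) had 1 library far from the others, and chance flags about 1 in 20 groups. In TMM-normalized CPM these were Eif4g2 at 3070 in control soma replicate 4 (nearest 1900), Eif4g2 at 2910 in control axon replicate 5 (nearest 1740), Eif4e2 at 72.3 in control axon replicate 5 (nearest 0.249), Eif4a2 at 1230 in stretched axon replicate 1 (nearest 581) and Eif2s2 at 846 in stretched axon replicate 6 (nearest 358).

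By edgeR's interaction test 7 named members were called. None of the 7 passed the filter for stretch in axons alone, so they entered this test through soma libraries and show no difference in stretch effect by themselves. On the log2 scale the stretch effect in axons minus that in soma was 14.03 for Eif2b5 and 11.21 for Eif4enif1 (adjusted p = 0.01606 for both), 9.06 for Eif5a2 (adjusted p = 0.02517) and 4.99 for Eef1a2 (adjusted p = 0.04267). It was -12.28 for Eef2k and -7.93 for Eif2ak3 (adjusted p = 0.01606 for both) and -7.35 for Eef1akmt3 (adjusted p = 0.02897). Each has an axon group at or near 0 counts, so these fitted sizes are no bounds. Eef1akmt3 had counts in control axon replicate 5 alone among the axons, and without that library its value was 0.45. None passed with limma voom or with the replicate block.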

How the results depend on the processing

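In soma, the counts of members called higher and lower (3 and 29) became 1 and 21 with the length and GC offset, 1 and 17 with the replicate block and that offset, 0 and 0 with all 4 groups in 1 fit and within set B, 2 and 17 without a filter, 5 and 33 with limma voom, 6 and 27 from 10 CPM up, 5 and 32 with the set as covariate, 6 and 22 within set A, and 5 and 29 in set B without control soma replicate 4. Leaving out 1 library gave 1 to 7 higher and 17 to 32 lower, with 7 higher and 32 lower without control soma replicate 4, 17 lower without control soma replicate 5 and 1 higher without control soma replicate 1. All genes called in soma (3929) became 2136 with the offset, 1810 with block and offset, 0 with all 4 groups and within set B, and 2666 to 6072 with 1 library left out. They became 3209 with the replicate block, 3030 without a filter, 5556 with limma voom, 3996 from 10 CPM up and 5304 with the set as covariate. Within set A they were 4637, and in set B without control soma replicate 4 they were 4462.

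In control axon against soma, members higher (1) became 3 with DESeq2, 2 with RLE or library totals, 0 with all 4 groups, limma voom, 10 CPM, no filter or the replicate block, and 0 to 1 with 1 library left out. Members lower (6) became 30 with limma voom, 2 from 10 CPM and 6 to 14 with 1 library left out. All genes (5196) became 9798, 843 and 10714 with limma voom, 10 CPM and no filter, and 4542 to 8151 with 1 library left out (8151 without control axon replicate 5). In stretched cultures, members higher (3) became 6 with library totals, 1 with limma voom, 10 CPM or no filter and 0 with the replicate block. Members lower (6) became 28 with limma voom, 2 from 10 CPM and 12 with the block. All genes (4234) became 10084, 634, 10931 and 7687 with limma voom, 10 CPM, no filter and the replicate block, and 4174 to 6499 with 1 library left out (6499 without treated axon replicate 8). For stretch in axons, all genes (0) became 18 with DESeq2, 10 with limma voom and 3870 with all 4 groups, where 5 members were higher and 4 lower. For the interaction, members (5 higher, 4 lower) became 3 and 1 from 10 CPM, 0 and 0 with either limma voom or the replicate block, and 3 to 9 and 2 to 7 with 1 library left out. All genes (3509) became 1464 with DESeq2, 3 and 0 with limma voom by group variance and by quality weights, 1586 from 10 CPM and 6 with the replicate block.

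Log2 values that changed sign were not called as printed, other than Eef1akmt3. For stretch in soma the changed values were Eif2s1 0.056, Eif3a 0.014 and Eif4a2 0.11 with all 4 groups in 1 fit, Eif4a2 0.019 and Eif5a 0.12 with the length and GC offset, Eif4a2 0.037 with library totals, Eif4a2 0.0047 with limma voom and quality weights, Eif4a2 0.032 with a minimum of 10 CPM, Eif4a2 0.023 with no filter, Eif5a 0.13 with the replicate block and the offset, Eif4g1 -0.18 with set B without control soma replicate 4, Eef1a2 -0.18 and Eif4a2 0.093 with set A alone and Eif3a 0.0033 and Eif4g1 -0.072 with set B alone. For stretch in axons the changed values were Eif4e 0.32, Eif4g1 0.28 and Eif4g2 -0.13 with limma voom and quality weights and Eef1a1 -0.13 and Eif4e 1.21 with the replicate block. For control axon against soma the changed values were Eif5a -0.093 with all 4 groups in 1 fit, Eif4g1 0.046 with library totals, Eif5a -0.012 with limma voom and quality weights, Eif5a -0.0077 with a minimum of 10 CPM, Eif5a -0.028 with no filter and Eif5a -0.027 with the replicate block. For stretched axon against soma the changed values were Eef2 0.064 and Eif2s1 0.16 with DESeq2, Eef2 0.064 and Eif2s1 0.16 with RLE size factors and Eef2 0.43, Eif1 0.010, Eif2s1 0.47, Eif4a2 0.25, Eif4e 0.056 and Eif5a 0.081 with library totals. For the interaction the changed values were Eef1b2 -0.010, Eif1 -0.026 and Eif4a1 -0.076 with DESeq2, Eef1b2 -0.010, Eif1 -0.026 and Eif4a1 -0.076 with RLE size factors, Eif4e 0.084 with library totals, Eef1b2 -0.064, Eif1 -0.0031, Eif4a1 -0.15 and Eif4e 0.79 with limma voom and a variance weight per group, Eef1b2 -0.31 and Eif4e 0.75 with limma voom and quality weights and Eif3a -0.12 and Eif4e 0.31 with the replicate block.

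With 1 library left out, these values spanned 0. For stretch in soma they ran from -0.030 to 0.22 for Eef1a2 and from -0.047 to 0.052 for Eif4a2. For stretch in axons they ran from -0.085 to 0.22 for Eef1a1, from -0.25 to 0.050 for Eif1, from -0.18 to 0.77 for Eif3a, from -0.33 to 0.049 for Eif4a1, from -0.13 to 0.52 for Eif4a2 and from -0.55 to 0.13 for Eif4e. For control axon against soma they ran from -0.52 to 0.085 for Eif4e, from -1.37 to 0.082 for Eif4g1 and from -0.024 to 0.24 for Eif5a. For stretched axon against soma they ran from -0.22 to 0.21 for Eef2 and from -0.33 to 0.24 for Eif2s1. For the interaction they ran from -7.67 to 0.45 for Eef1akmt3, from -0.25 to 0.24 for Eef1b2, from -0.065 to 0.25 for Eif1, from -0.20 to 0.79 for Eif3a, from -0.14 to 0.25 for Eif4a1, from -0.24 to 0.44 for Eif4a2 and from -0.43 to 0.21 for Eif4e. The cause of these shifts was not tested.

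The labels do not say that a replicate number marks a shared culture, and the libraries were not treated as paired. Deviations of same-numbered soma libraries were all positively correlated (0.0906 to 0.233, mean 0.189, 5 pairs, other pairs -0.0301), with 2 best with their own number, and every number that control and stretched soma share lay in 1 set, A or B. In axons the mean was 0.0398 (3 pairs). With the replicate block, 22 members were lower and 4 higher in soma, against 1630 and 1579 of all 15632 genes. Not called higher in axons with that block were Eef1a1 (edgeR adjusted p = 0.3331 in control, 0.209 in stretched cultures), Eef1g (0.4453) and Eif4ebp1 (0.4393).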
